A study of Mus musculus with 75 samples.

Results

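The 7 genes described here encode peptide precursors that are widely used to tell apart classes of cortical inhibitory neurons: Sst, Npy, Pdyn, Cort, Tac1, Pnoc and Pthlh. They were taken by symbol from the deposited table, where all 7 had a row among 14261 genes kept. The working grouping was peptides of SST and PV neurons. For Sst, Npy, Pdyn and Cort the highest level was in the SST line and for Tac1 in the PV line, but Pthlh was highest in the VIP line, so the data go against that grouping for Pthlh. Pnoc had its highest mean over all housing in VIP too, about level with Gad2 and not separated from SST by the size rule used below. The set is therefore called the 7 peptide precursor genes.

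The study sequenced ribosome-bound RNA of visual cortices, taken from C57BL/6 mice aged 8 weeks. All mice carried 1 copy of a RiboTag allele (Rpl22-HA, which puts an HA tag on a ribosomal protein in cells with Cre) and 1 copy of Emx-, Gad2-, Pv-, Sst- or Vip-Cre, so every control also carries both alleles. Tagged ribosomes come from whatever cells each driver marks, mainly excitatory neurons for Emx, inhibitory neurons in general for Gad2, and classes of inhibitory neurons for Pv, Sst and Vip. Each line was sampled in standard housing, after dark housing, and on light exposure that ended the dark housing and lasted 1 h, 3 h or 7.5 h. Each sample pooled the visual cortices of 3 mice, and each of the 25 groups has 3 replicates, except that SST dark and SST standard have values for 2 libraries each (replicate number 2 is empty in the table). The length of dark housing is not given in the sources used here.

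Values are the authors' normalised signal per gene and library, given here without a further unit, and depth was estimated from them at 7.28 to 52.3 M gene reads per library (median 24.8). The range was 20.6 to 52.3 M in dark, 15.9 to 47.0 M at 1 h, 14.2 to 46.5 M at 3 h, 8.25 to 24.8 M at 7.5 h and 7.28 to 30.6 M in standard housing, so the 7.5 h and standard libraries tended to be shallower. Line identity was checked with the mean signal of defining genes. Slc17a7, which loads glutamate into vesicles of excitatory neurons, was 23451 in Emx and 1102 to 4236 in the other lines. Vip was 81843 in VIP and Gad2 was 421 in Emx against 40056 to 72589 in the other lines, while Pvalb was 11942 in PV and 10221 in Gad2. The summed signal of 8 astrocyte markers was 159283 to 216498 in the Emx line and 14663 to 31229 in the PV line, so the Emx samples also hold RNA of glia. The VIP line stood between, at 38529.6 to 69149.8, and its sum of 10 excitatory markers was 40360.0 to 71263, against 14859 to 27493 in Gad2, 13858 to 29546 in PV and 15130.3 to 34181 in SST. In the Emx line, where both marker sums are highest, Pnoc and Pthlh were at means of 12.4 and 15.7. The part of glial, excitatory or other RNA in the VIP levels of the members was not tested.

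Neuropeptides are cut from longer precursors inside dense-core vesicles by convertases and carboxypeptidases, and act mostly on G-protein-coupled receptors of nearby cells. In cortex somatostatin marks interneurons that target dendrites, and neuropeptide Y is made by part of them and by neurogliaform cells. Several precursor genes are transcribed more after neuronal activity, for Sst (worked out in rat) through the transcription factor CREB and the cyclic AMP response element (CRE) of its promoter.

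The promoter windows of 4 members are shown because they differ in CRE content, and no binding was measured. They run from 250 bases before to 50 bases after the annotated start, come from RefSeq on GRCm38.p6 (the values themselves were made on mm9, per the submitters' processing notes, and were matched by symbol only), and are written 5′ to 3′ along the gene. Capitals mark the full palindrome TGACGTCA or its half-site TGACG, read on either strand, so that CGTCA is the half-site on the opposite strand.
Sst (chr16:23890795-23891094, minus strand): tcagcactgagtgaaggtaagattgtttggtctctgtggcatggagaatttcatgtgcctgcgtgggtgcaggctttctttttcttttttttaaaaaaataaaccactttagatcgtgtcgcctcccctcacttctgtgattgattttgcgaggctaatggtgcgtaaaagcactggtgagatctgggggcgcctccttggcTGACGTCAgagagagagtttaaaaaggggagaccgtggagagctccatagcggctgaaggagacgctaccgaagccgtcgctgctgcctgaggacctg
Cort (chr4:149126714-149127013, minus strand): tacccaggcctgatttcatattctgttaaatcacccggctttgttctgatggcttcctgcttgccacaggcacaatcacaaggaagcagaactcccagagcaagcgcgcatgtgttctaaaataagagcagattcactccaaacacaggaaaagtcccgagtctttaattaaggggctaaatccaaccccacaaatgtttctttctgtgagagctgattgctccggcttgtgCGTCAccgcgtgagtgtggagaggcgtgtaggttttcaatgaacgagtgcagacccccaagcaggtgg
Tac1 (chr6:7554811-7555110, plus strand): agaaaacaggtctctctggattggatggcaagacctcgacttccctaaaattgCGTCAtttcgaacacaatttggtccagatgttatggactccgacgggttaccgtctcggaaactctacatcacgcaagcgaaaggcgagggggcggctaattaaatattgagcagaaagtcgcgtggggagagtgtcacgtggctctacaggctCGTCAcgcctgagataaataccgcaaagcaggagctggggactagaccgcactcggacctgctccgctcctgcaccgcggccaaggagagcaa
Npy (chr6:49822460-49822759, plus strand): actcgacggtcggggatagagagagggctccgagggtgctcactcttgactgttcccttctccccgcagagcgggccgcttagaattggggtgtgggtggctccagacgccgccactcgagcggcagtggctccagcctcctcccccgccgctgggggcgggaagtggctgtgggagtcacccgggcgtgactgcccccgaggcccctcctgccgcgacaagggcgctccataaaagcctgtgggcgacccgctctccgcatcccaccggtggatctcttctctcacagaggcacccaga
Among these windows the full palindrome occurred in Sst alone, its first base 48 bases before the start (position -48), and the 2 half-sites of Sst lie within it. Cort had 1 half-site at -18 and Tac1 had 2, at -197 and -43, and Npy had none. Of the other members, the windows of Pdyn (2 starts) and Pthlh held neither form, Pnoc was not analysed here, and the AP-1 motif TGANTCA was in none of the 7 windows. Over 32851 RefSeq promoter windows of the same length, 1.79% held TGACGTCA, 20.8% held TGACG and 7.81% held TGANTCA, each on either strand. A match is a description of letters and says nothing on binding.

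Sst and Cort, the precursors of somatostatin and cortistatin, encode peptides that share most residues and bind the same receptors. The 36 coding bases below (GENCODE M21, Sst coding bases 312 to 347 and Cort coding bases 288 to 323, counted from 1 at the start codon) are shown because reads of 1 gene could be taken for the other; capitals mark bases shared by both.
Sst: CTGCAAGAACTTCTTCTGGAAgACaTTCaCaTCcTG
Cort: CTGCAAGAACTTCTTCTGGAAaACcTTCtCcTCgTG
The pair matched at 31 of 36 bases (86.1%), and the longest stretch shared without a mismatch was 21 bases, shorter than the 50-base reads. No pair of the 7 members shared a longer run. On GRCm38 the members lie at chr16:23889573-23890958 on the minus strand (Sst), chr6:49822710-49829507 on the plus strand (Npy), chr2:129686565-129699844 on the minus strand (Pdyn), chr4:149125034-149126763 on the minus strand (Cort), chr6:7554879-7565834 on the plus strand (Tac1), chr14:65400673-65425472 on the minus strand (Pnoc) and chr6:147252101-147264183 on the minus strand (Pthlh). No exon of a member overlapped an exon of another gene in that annotation.

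The first comparison asked in which line each precursor was highest, on log2(signal + 1) with limma, as in every test here. Across the 70 pairs of member and lines, 56 differed at a 5% false discovery rate and by at least 1 on the log2 scale, against 19.7% of all gene and pair combinations. The members are genes used to tell classes of inhibitory neurons apart, which that share does not take into account. The SST line carries Sst-Cre, so a high Sst level there follows from how its cells were tagged. Sst, whose peptide somatostatin acts through the SSTR receptors, had a mean signal of 85022 ± 11122 (SD, n = 13) in the SST line and 50950.5 ± 7886 (SD, n = 15) in Gad2, a gap smaller than the required size (Gad2 minus SST log2 -0.73 ± 0.10 SE, adjusted p = 4.02e-08). It was far lower in VIP at 1047, PV at 931 and Emx at 278. VIP and PV were not separated (PV minus VIP log2 -0.18 ± 0.10 SE, adjusted p = 0.0949), and PV stood at 1.10% of the SST line. In bulk samples like these, fewer cells of a type and less RNA per cell cannot be told apart.

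Npy, the precursor of neuropeptide Y, had the same order of lines, with VIP and PV at a larger share of the SST level (12.5% and 2.79%) than for Sst (1.23% and 1.10%). It averaged 24628 ± 12655 (SD, n = 13) in SST, 13412 in Gad2, 3077 in VIP, 687 in PV and 73.2 in Emx. SST and Gad2 were not separated (Gad2 minus SST log2 -0.75 ± 0.33 SE, adjusted p = 0.0785), and every later step in the order was. Pdyn, the dynorphin precursor, averaged 13979 ± 1669 in SST (SD, n = 13), 2903 in Gad2, 199 in Emx, 100.4 in VIP and 52.5 in PV. Of the members it had the lowest second line relative to the first, Gad2 at 20.8% of SST. Leaving Gad2 aside, the next line was Emx at 1.42% for Pdyn and VIP at 1.23% for Sst. Its difference between SST and PV was the widest measured for it (PV minus SST log2 -8.13 ± 0.16 SE, adjusted p = 1.07e-43), and VIP and PV differed by less than the required size (PV minus VIP log2 -0.90 ± 0.15 SE, adjusted p = 9.73e-07). Emx held more Pdyn than VIP or PV, with Emx minus PV at log2 2.02 ± 0.15 SE, adjusted p = 1.54e-17.

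Cort was spread more evenly over the inhibitory lines. The mean was 1222 ± 461 in SST (SD, n = 13), 634 in Gad2, 381 in PV, 279 in VIP and 11.5 in Emx. PV held 31.2% of the SST level, against 1.10% for Sst. SST exceeded PV (PV minus SST log2 -1.75 ± 0.32 SE, adjusted p = 7.8e-06), whereas neither Gad2 against PV, Gad2 against SST nor PV against VIP reached the required size. In the Emx line Cort ranged from 0 to 27.3, 1 library being listed at 0, so no fold is given there.

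Tac1 encodes the precursor of substance P and neurokinin A. It averaged 3467 ± 1283 in PV (SD, n = 15) and 2782 in Gad2, which were not separated (Gad2 minus PV log2 -0.31 ± 0.23 SE, adjusted p = 0.294). SST followed at 877, with PV minus SST at log2 1.94 ± 0.24 SE, adjusted p = 6.61e-10, and Emx at 56.7 and VIP at 31.3 were lowest, differing from each other by less than the required size. Pnoc, the precursor of nociceptin, was about level in VIP at 2481 ± 849 (SD, n = 15) and Gad2 at 2404 (Gad2 minus VIP log2 -0.01 ± 0.21 SE, adjusted p = 0.965). It stood at 1643 in SST, 889 in PV and 12.4 in Emx, and VIP exceeded PV (PV minus VIP log2 -1.52 ± 0.21 SE, adjusted p = 7.05e-09). The SST line differed from Gad2, VIP and PV by less than the required size, and its mean at 7.5 h, 3076, was above the 2828 of VIP at that time by less than the spread between libraries.

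Pthlh encodes parathyroid hormone-related protein, a ligand of the receptor Pth1r. Its mean was 4189 ± 1017 in VIP (SD, n = 15), 1043 in PV, 810.3 in Gad2, 64.8 in SST and 15.7 in Emx. VIP libraries ran from 2767 to 6448 and SST libraries from 37.2 to 102, with no overlap (SST minus VIP log2 -6.02 ± 0.11 SE, adjusted p = 7.57e-45). PV also exceeded SST (PV minus SST log2 4.01 ± 0.11 SE, adjusted p = 2.12e-36), and PV and Gad2 differed by less than the required size. With the replicate number as a block, the same count of 56 pairs passed.

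Signals of different genes can be set beside each other only per length. Per kilobase of annotated transcript (GENCODE M21, an approximation to the annotation used upstream), the mean level in the SST line was 117923 for Sst, 43512 for Npy, 5859 for Pdyn, 1805 for Cort, 762 ± 549 (SD) for Pnoc, 713 ± 210.2 for Tac1 and 40.4 for Pthlh. On that scale Tac1 was the most abundant member in the PV line at 2819 ± 1043 (SD, n = 15), and Sst was at 1292 ± 423 and Npy at 1214 ± 763. These means pool all housing, and the differences between Sst and Npy in PV and between Pnoc and Tac1 in SST lie within the spread between libraries. In the VIP line Npy at 5437 and Pthlh at 2613 led.

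**Figure D1:**
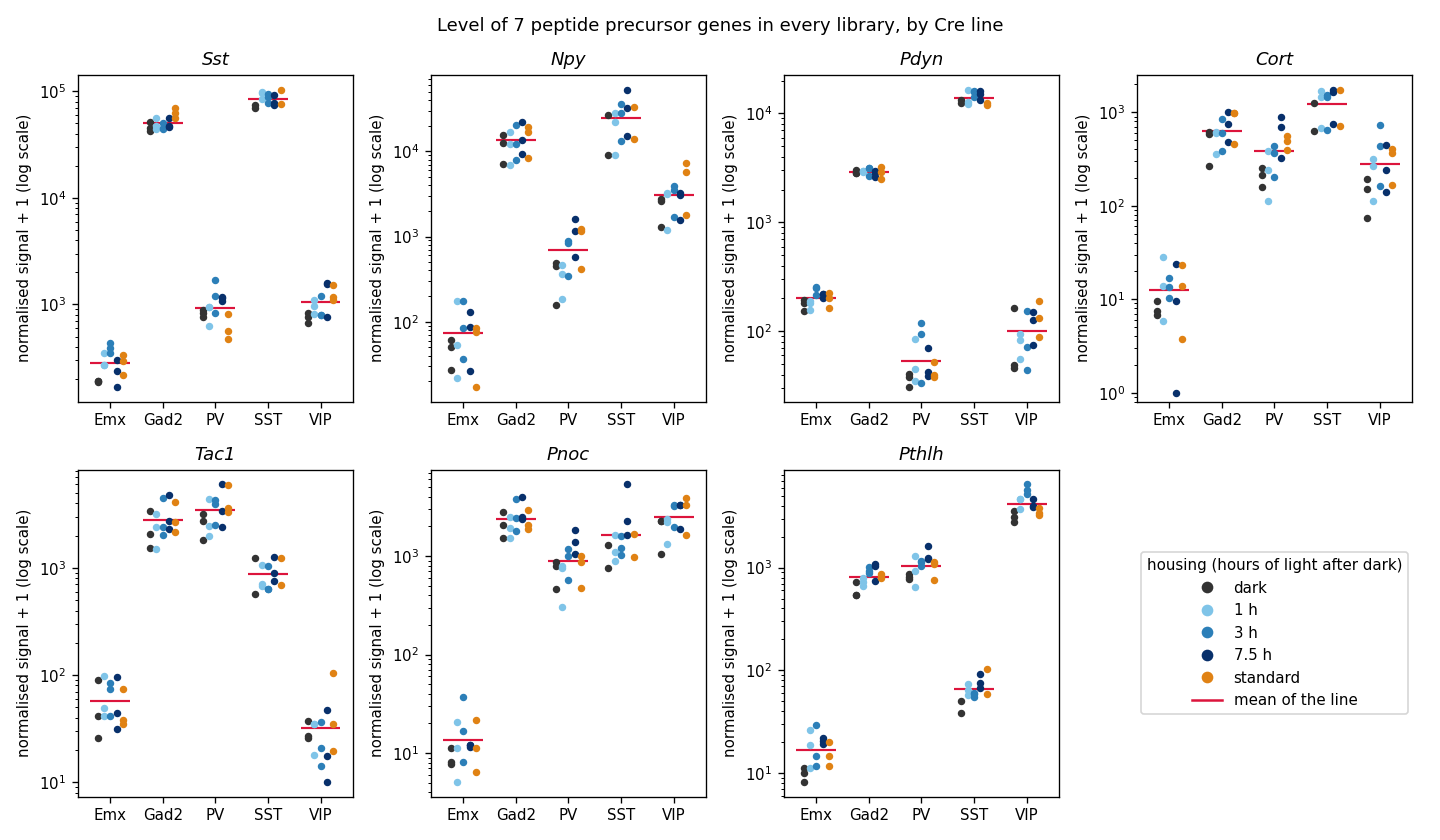
Normalised signal plus 1 (vertical axis, log scale) of each peptide precursor gene in every library, by Cre line (horizontal axis); point colours give the housing and red lines the mean of the line. Sst, Npy, Pdyn and Cort are highest in the SST line, Tac1 in PV, and Pnoc and Pthlh in VIP by the mean over all housing.

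The second comparison asked whether light after dark housing changed the members within a line. Libraries of the same replicate number deviated together (the check stands with the processing), so calls were made without the number as a block and with it. Most estimates below are from the fit with the block. The 2 light calls named next were the only ones made without it. Without the block, 2 of 105 member contrasts were called, both higher, against 0.526% of all gene contrasts called higher. They were Sst in the Emx line and Pthlh in the VIP line, both at 3 h. With the block 28 of 105 were called, all higher, against 3.8%. By time these were 3 of 35 at 1 h (background 1.13%), 10 of 35 at 3 h (3.3%) and 15 of 35 at 7.5 h (6.99%). By line they were 3 of 21 in Emx (background 7.48%), 7 in the Gad2 line (2.96%) and 6 in each of the PV (2.22%), SST (5.09%) and VIP (1.27%) lines. The block moved the estimates of the members by at most 0.181 on the log2 scale, in the SST line with its missing libraries. Of the 28 calls, 14 held whichever replicate number was left out of the blocked fit. In the SST line, leaving out number 1 or 3 leaves 1 dark library and 1 standard library, which is then assumed to vary like the other groups. These were Npy in PV and SST and Pthlh in Gad2 at 3 h and 7.5 h, Pnoc in Gad2, PV and SST, Cort in Gad2 and PV and Tac1 in Gad2 at 7.5 h, and Pthlh in VIP and Sst in Emx at 3 h. The median log2 change over the 105 member contrasts was 0.37, while the median over all genes lay between -0.03 and 0.00 in each of the 15 contrasts. All light contrasts of a line share its dark libraries, so they are not independent of each other.

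Npy changed in the PV and SST lines. In PV its signal was 158, 490.5 and 456 in dark housing (replicates 1, 2 and 3) and 186, 465 and 364 after 1 h. It was 343, 879.9 and 837 after 3 h and 574, 1147 and 1596 after 7.5 h. Every number stood higher at 3 h than in dark and higher again at 7.5 h, and the 7.5 h libraries did not overlap the dark ones, although number 1 lay below the others throughout. With the block Npy rose 1.92-fold (log2 0.94 ± 0.13 SE, adjusted p = 5.94e-05) at 3 h and 3.09-fold (log2 1.63 ± 0.13 SE, adjusted p = 3.61e-09) at 7.5 h. Without it the adjusted p was 1.00 and 0.461.

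In the SST line Npy was 8965 and 26378 in dark housing (numbers 1 and 3) and 9084, 21825 and 28451 at 1 h. It reached 13363, 28281 and 36108 at 3 h and 15322, 32608 and 52952 at 7.5 h. Numbers 1 and 3 were both above their own dark value at each later time, but number 1 lay below the others in every condition and the groups overlapped. With the block the change was 1.44-fold (log2 0.52 ± 0.10 SE, adjusted p = 0.00888) at 3 h and 1.79-fold (log2 0.84 ± 0.10 SE, adjusted p = 0.000112) at 7.5 h, and the adjusted p without it was 1.00 and 0.727. Without the block and without SST dark replicate 1, the 3 h estimate turned negative (log2 -0.14). In Gad2, VIP and Emx no light contrast of Npy was called by either fit, its highest estimate there being at 3 h in Emx, where it ranged from 35.8 to 176. The summed signal of 7 SST markers other than members was 4588 to 4917 in the PV line in dark and 5072 to 6349.9 at 7.5 h. That of 5 neurogliaform markers was 3224 to 4571 and 3427 to 5154. Each sum rests largely on 1 gene, by means of the PV line over all housing. Crhbp was at 3200 among the SST markers and Gabrd at 3327 among the neurogliaform ones. Gabrd was higher in PV than in any other line, so its sum is no clear measure of neurogliaform RNA there. In the PV line 1 of the 7 SST markers, Crhbp, rose at 7.5 h with the block (log2 0.35, adjusted p = 0.00443), and of 6 inhibitory markers Gad1 and Gad2 rose and Dlx1 fell (log2 -0.47, adjusted p = 0.000179). The part of these markers in the Npy change was not tested.

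Cort had its widest changes in PV and VIP. Its PV signal was 159, 254 and 210.0 in dark and 326, 693 and 878 at 7.5 h, without overlap. This was 2.85-fold (log2 1.51 ± 0.19 SE, adjusted p = 2.46e-05) with the block, with an adjusted p of 0.282 without it. In VIP it was 73.7, 149.9 and 194 in dark and 162, 431 and 726 at 3 h, each number above its own dark value though the groups overlapped. The change there was 2.86-fold (log2 1.51 ± 0.29 SE, adjusted p = 0.0046) with the block, and the adjusted p was 0.146 with the block when number 2 was left out. Without the block its adjusted p was 0.599, and no light contrast of Cort was called in any line. Smaller changes passed with the block at 7.5 h in Gad2, 1.56-fold (log2 0.64 ± 0.11 SE, adjusted p = 0.000518), and in SST, 1.27-fold (log2 0.34 ± 0.10 SE, adjusted p = 0.0133), where leaving out number 3 ended the call (adjusted p = 0.300).

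Pnoc rose in 4 lines with the block. In the SST line it was 756 and 1295 in dark (numbers 1 and 3), 1014, 1216 and 1609 at 3 h and 1644, 2254 and 5329.8 at 7.5 h. All 7.5 h libraries lay above both dark ones, and number 3 at 7.5 h was far above every other library of the line. The change at 7.5 h was 2.86-fold (log2 1.52 ± 0.21 SE, adjusted p = 0.00209) with the block, and 2.73-fold (log2 1.45 ± 0.45 SE, adjusted p = 0.225) without it. With the block and number 3 left out the log2 change was 1.18, against a single dark library whose spread is taken from the other groups.

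In PV, Pnoc was 463, 869.5 and 794 in dark and 1049, 1386 and 1835 at 7.5 h, with no overlap. The change with the block was 2.03-fold (log2 1.02 ± 0.13 SE, adjusted p = 1.18e-05). In Gad2 it was 1.38-fold (log2 0.47 ± 0.08 SE, adjusted p = 0.000248) at 7.5 h and 1.22-fold (log2 0.28 ± 0.08 SE, adjusted p = 0.0406) at 3 h, and leaving out number 2 or 3 ended the 3 h call (adjusted p 0.0814 and 0.424). In VIP the signal was 1040.2, 2265 and 2255 in dark, 1962, 3222 and 3322 at 3 h and 1887, 3307 and 3289 at 7.5 h, each number above its own dark value and the groups overlapping. The change with the block was 1.58-fold (log2 0.66 ± 0.12 SE, adjusted p = 0.00224) at 3 h and 1.57-fold (log2 0.65 ± 0.12 SE, adjusted p = 0.00308) at 7.5 h, and leaving out number 1 or 2 ended both calls (adjusted p 0.0768 to 0.134). Without the block no Pnoc contrast was called, the smallest adjusted p being 0.225 in SST.

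Pthlh was the member with the most calls, 7 of 15 with the block. In the VIP line, where it is highest, it was 2767, 3572 and 3099.5 in dark and 3709, 4622 and 4676 at 1 h. It was 5651, 6448 and 5218 at 3 h and 4008, 4674 and 3882 at 7.5 h, a step between light times that was not tested. All light libraries of the VIP line exceeded all dark ones. The 3 h rise was 1.84-fold (log2 0.88 ± 0.16 SE, adjusted p = 0.0192) without the block and 1.84-fold (log2 0.88 ± 0.10 SE, adjusted p = 1.22e-05) with it. Leaving out VIP dark replicate 1 or 3, or VIP 3 h replicate 1 or 2, ended the call without the block (adjusted p 0.0725 to 0.135), at log2 0.79 to 0.89. With the block the 1 h change was 1.38-fold (log2 0.46 ± 0.10 SE, adjusted p = 0.0248) and the 7.5 h change 1.33-fold (log2 0.42 ± 0.10 SE, adjusted p = 0.0292). Leaving out any number ended the first (adjusted p 0.129 to 0.474), and leaving out number 1 or 2 the second (0.405 and 0.377). Beside this, the summed signal of 6 inhibitory markers in the VIP line was 105250.0 to 112965 in dark and 124967 to 137123 at 3 h, and that of 8 VIP markers 127912 to 171466 and 168304 to 205296, whose part was not tested.

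In Gad2, Pthlh was 544, 536 and 718 in dark, 932, 891 and 1020.5 at 3 h and 1032, 746 and 1093 at 7.5 h, the libraries of both times all above the dark ones. Outside the VIP line no light contrast of Pthlh was called without the block. In Gad2 the adjusted p was then 0.236 at 3 h and 0.109 at 7.5 h. The change in Gad2 with the block was 1.59-fold (log2 0.67 ± 0.11 SE, adjusted p = 0.000325) at 3 h and 1.59-fold (log2 0.67 ± 0.11 SE, adjusted p = 0.000166) at 7.5 h. In PV the 7.5 h change was 1.65-fold (log2 0.72 ± 0.15 SE, adjusted p = 0.00807) and in SST 1.88-fold (log2 0.91 ± 0.31 SE, adjusted p = 0.0465), and the PV call ended when number 3 was left out (adjusted p = 0.179), the SST call when any number was (0.0658 to 0.486).

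Tac1 was called in Gad2 and PV with the block, and in no line without it. In PV, where it is highest, it was 1806, 2709.7 and 3159.9 in dark and 2399.7, 3424 and 6004 at 7.5 h, each number above its own dark value and the groups overlapping. The change with the block was 1.47-fold (log2 0.56 ± 0.14 SE, adjusted p = 0.0307) and ended when number 1 or 3 was left out (adjusted p 0.176 and 0.0746). In Gad2 it was 1516, 2076 and 3381 in dark and 2294, 2711 and 4744 at 7.5 h, giving 1.40-fold (log2 0.49 ± 0.07 SE, adjusted p = 5.98e-05) with the block. The 3 h change there, 1.27-fold (log2 0.35 ± 0.07 SE, adjusted p = 0.00535), ended when number 1 or 3 was left out (adjusted p 0.0859 and 0.143). In the VIP and Emx lines, where Tac1 is near its lowest level, no contrast was called.

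In the SST line, where it is highest, Sst was called at 1 light time, with the block. It was 73770.0 and 69334 in dark (numbers 1 and 3) and 96198, 98200.0 and 83962 at 1 h. It was 88158, 93663 and 77071 at 3 h and 78602, 92909 and 74122 at 7.5 h. The libraries of every light time lay above both dark ones, at 7.5 h narrowly. With the block the 1 h change was 1.24-fold (log2 0.31 ± 0.06 SE, adjusted p = 0.0163), a call that ended when number 1 was left out (adjusted p = 0.192). In the Emx line, at 0.327% of the SST level, Sst was 188, 187 and 189 in dark and 271, 269.8 and 349.8 at 1 h. It was 350.1, 390.1 and 429 at 3 h and 167, 299.6 and 234 at 7.5 h. The 3 h libraries did not overlap the dark ones, and by 7.5 h the groups overlapped. The 3 h rise was 2.06-fold (log2 1.04 ± 0.22 SE, adjusted p = 0.0294) without the block, and leaving out any 1 of the 6 libraries compared ended it (adjusted p 0.0503 to 0.133, log2 0.97 to 1.12). With the block it was 2.06-fold (log2 1.04 ± 0.17 SE, adjusted p = 0.000288). The 1 h change also passed with the block, 1.56-fold (log2 0.64 ± 0.17 SE, adjusted p = 0.0463), and leaving out number 2 or 3 ended it (adjusted p 0.205 and 0.427). In the Emx line the summed signal of 6 inhibitory markers was 3942 to 5004 in dark and 5257 to 5568 at 3 h. That of 7 SST markers other than members was 1400.0 to 1768 and 1379.7 to 2044. Of these 13 markers Slc32a1, the vesicular GABA transporter, was the one to rise with the block at 3 h (log2 1.02, adjusted p = 0.0111). Pvalb, a marker of another inhibitory class, also rose (log2 0.93, adjusted p = 0.00497), and the part of these markers in the Sst change was not tested.

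Pdyn had the fewest calls. In the SST line it was 12569 and 13402 in dark (numbers 1 and 3), 14064, 16006 and 15848 at 3 h and 13183, 14954 and 15939 at 7.5 h, and no contrast there was called by either fit. Its single call with the block was at 3 h in Emx, 1.36-fold (log2 0.44 ± 0.14 SE, adjusted p = 0.043), and leaving out any 1 replicate number ended it (adjusted p 0.0664 to 0.300). In Gad2 the 15 libraries ranged from 2523 to 3227, the narrowest relative range of a member in that line.

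**Figure D2:**
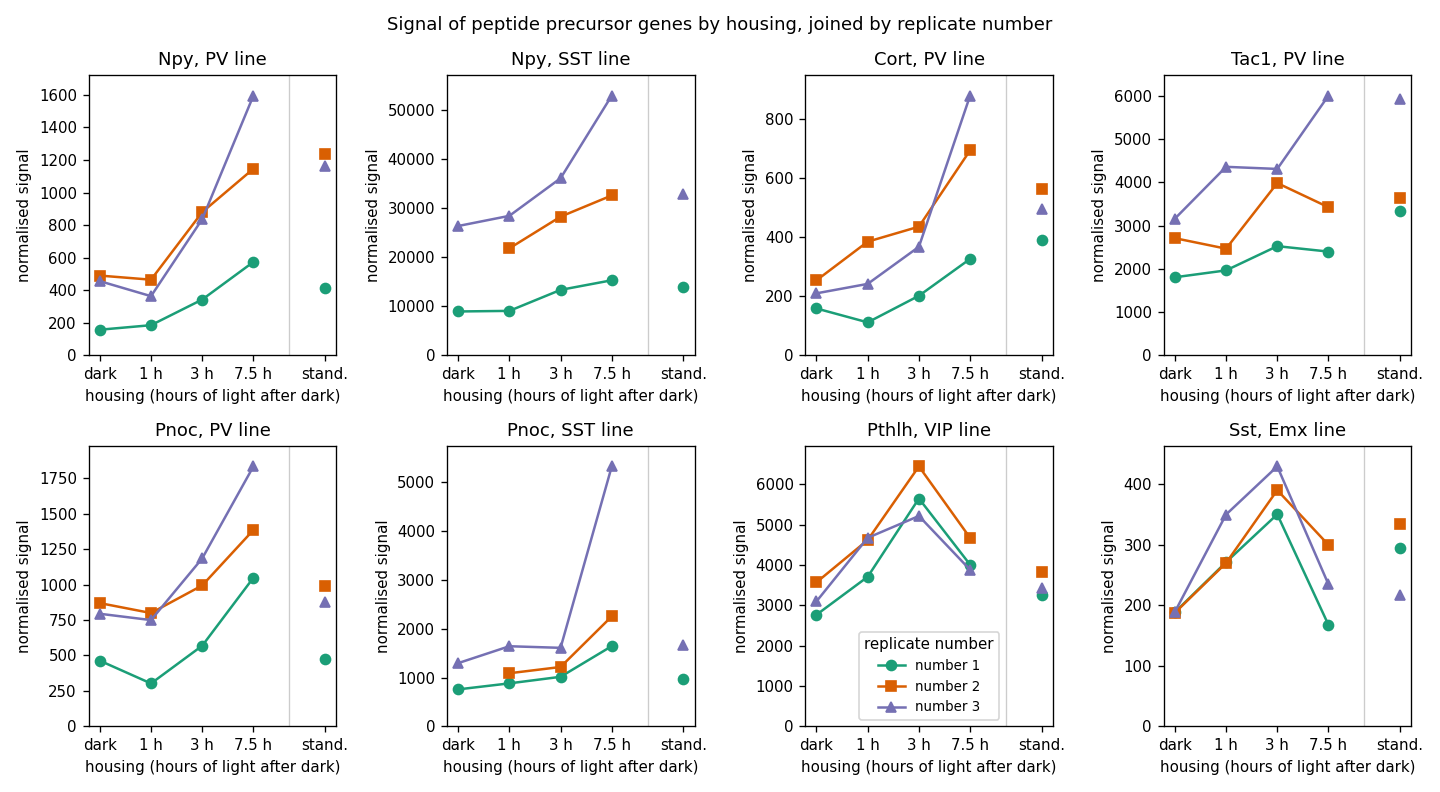
Normalised signal (vertical axes, linear, from 0) by housing (horizontal axes) for 8 pairs of gene and line, with lines joining the libraries of 1 replicate number; standard housing stands apart at the right, and number 2 has no dark or standard library in SST. Npy, Cort and Pnoc in PV rise in every number by 7.5 h, while Pthlh in VIP and Sst in Emx peak at 3 h.

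**Figure D3:**
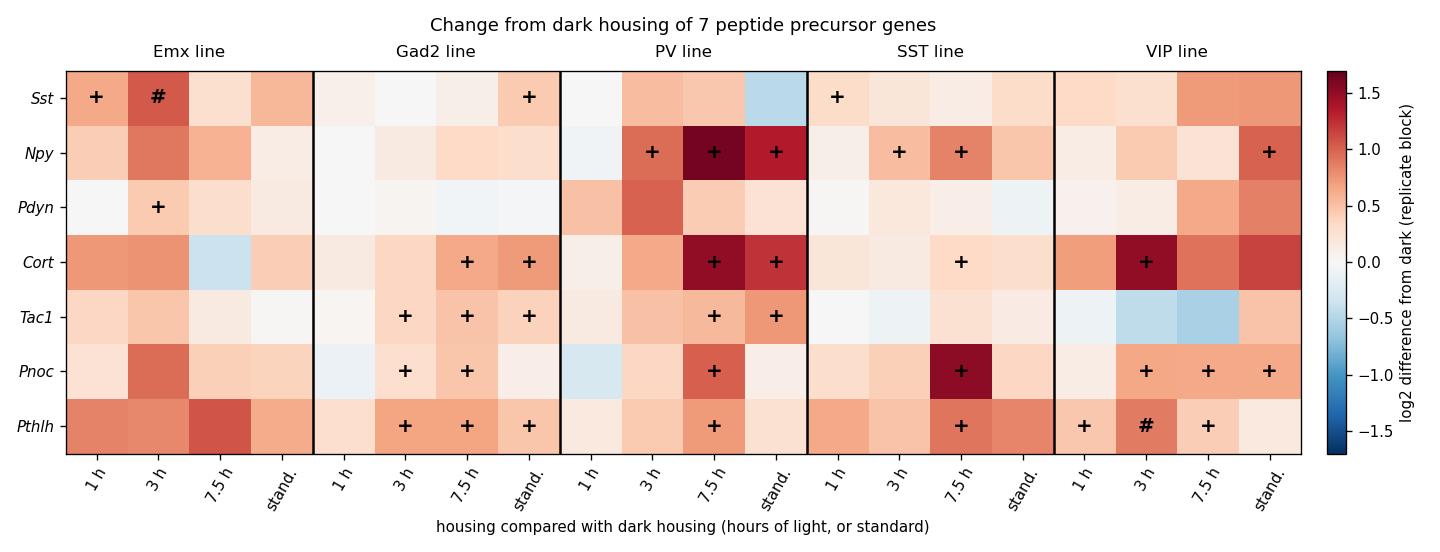
Log2 difference from dark housing (colour) of each gene (rows) in each line and housing (columns), from the fit with the replicate number as a block. A plus marks a call with the block and a hash one with and without it; all 28 light calls are rises.

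Standard housing was compared with dark housing to ask how far the dark-housed level lies from the usual one. No member contrast of 35 was called by limma without the block (7 had an unadjusted p under 0.05, all higher), against 0.0817% of all gene contrasts. With the block 9 were called, all higher, against 0.756% of all gene contrasts called higher. Npy in PV was 411, 1236 and 1164 in standard housing, 2.55-fold (log2 1.35 ± 0.13 SE, adjusted p = 2.12e-07) the dark level with the block, the ratios to the dark library of the same number being 2.60, 2.52 and 2.55. In VIP it was 1797, 5703 and 7360.0 against 1284, 2754 and 2624 in dark, 2.01-fold (log2 1.01 ± 0.15 SE, adjusted p = 0.000872), and leaving out number 2 ended that call (adjusted p = 0.0942). Cort was also higher in PV, 2.33-fold (log2 1.22 ± 0.19 SE, adjusted p = 0.000782), and in Gad2, 1.65-fold (log2 0.72 ± 0.11 SE, adjusted p = 0.00101). The other 5 calls were Tac1 in Gad2 and PV, Pnoc in VIP, and Pthlh and Sst in Gad2, at 1.31- to 1.67-fold. Pdyn was called in no line, its estimate in the SST line being log2 -0.09 (adjusted p = 0.797 with the block). Npy and Cort in PV and Cort in Gad2 were called whichever number was left out, and each of the other 6 calls ended in at least 1 of those fits.

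The 7.5 h libraries were also set against those at 1 h and in standard housing, which leaves the dark samples out. Between 7.5 h and 1 h no member was called by limma without the block, against 0.57% of all gene contrasts called. Of the 35 member contrasts 6 had an unadjusted p under 0.05, a looser rule to which that share does not apply. With the block 12 were called, against 9.74% of all gene contrasts, and 11 of them were higher, against 5.38%. The higher ones included Npy in PV, 3.21-fold (log2 1.68 ± 0.13 SE, adjusted p = 2.57e-09), Pnoc in PV, 2.45-fold (log2 1.29 ± 0.13 SE, adjusted p = 6.98e-07), and Pnoc in SST, 2.32-fold (log2 1.22 ± 0.19 SE, adjusted p = 0.00322). Cort rose in PV, 2.66-fold (log2 1.41 ± 0.19 SE, adjusted p = 8.51e-05), and Tac1 in Gad2, 1.37-fold (log2 0.45 ± 0.07 SE, adjusted p = 0.000344). The other 6 higher calls were Npy in SST, Cort in Gad2, Pnoc in Gad2 and VIP, and Pthlh in Gad2 and PV, at 1.31- to 1.67-fold. Leaving out some number ended the calls of Cort and Pthlh in Gad2, Pthlh in PV and Pnoc in VIP (adjusted p 0.057 to 0.61). Pdyn was called in no line. Sst in the SST line was the one lower, 0.88-fold (log2 -0.18 ± 0.06 SE, adjusted p = 0.0314), a call that ended without number 1 (adjusted p = 0.140). Between 7.5 h and standard housing none was called by limma without the block, against 0.239% of all gene contrasts called. Of the 35 member contrasts 4 had an unadjusted p under 0.05, the looser rule. With the block 5 were called, against 7.03%. Of these, Pnoc was above its standard level in PV, 1.87-fold (log2 0.90 ± 0.13 SE, adjusted p = 0.000352), in SST, 2.24-fold (log2 1.16 ± 0.21 SE, adjusted p = 0.00974), and in Gad2, 1.28-fold (log2 0.35 ± 0.08 SE, adjusted p = 0.0172). Npy in VIP was below it, 0.59-fold (log2 -0.77 ± 0.15 SE, adjusted p = 0.0257). Npy in SST was above it, 1.29-fold (log2 0.37 ± 0.10 SE, adjusted p = 0.0291). Leaving out number 3 ended the calls of Pnoc in Gad2 (adjusted p = 0.196) and Npy in SST (0.502), and leaving out number 2 or 3 that of Npy in VIP (0.34 and 0.163). The PV call of Pnoc held in each left-out fit, and the SST call did too, there with 1 standard library when number 1 or 3 was out. Sst, Pdyn, Cort, Tac1 and Pthlh were called in no line.

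A further test, of line by light time, asked whether lines differed in their response to light. No member of 7 was called in any of the 4 comparisons of lines by limma without the block, against 0.165% of all gene tests called. Of the 28 member tests 1 had an unadjusted p under 0.05, a looser rule to which that share does not apply. With the block 2 of 28 passed, against 2.68%, both for Npy and none for the other 6 members. Over all 5 lines the F value was 4.34 (adjusted p = 0.00897) and between PV and VIP it was 11.4 (adjusted p = 0.00296). At 7.5 h the Npy change was 3.09-fold (log2 1.63 ± 0.13 SE, adjusted p = 3.61e-09) in PV and 1.18-fold (log2 0.24 ± 0.15 SE, adjusted p = 0.537) in VIP. Leaving out number 1 or 3 ended both calls and leaving out number 2 that over all lines (adjusted p 0.0794 to 0.233 over all lines and 0.0273 to 0.0819 for PV against VIP). Between SST and PV the Npy response was not called by either fit (adjusted p = 0.523 with the block).

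Replicate number 1 was low for some members in every condition. Its library was the lowest of its group for Npy and for Cort in 23 of 23 groups with 3 libraries, for Pnoc in 21, for Tac1 in 18, for Pthlh in 12, for Pdyn in 8 and for Sst in 3. The median log2 gap of number 1 to the mean of numbers 2 and 3 was -1.26 for Npy, -1.19 for Cort, -0.76 for Pnoc and -0.70 for Tac1. It was -0.15 for Pthlh and 0.08 for both Sst and Pdyn, where the median over 11930 genes was also 0.08. What the number marks is not given in the labels, and its cause was not tested.

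**Figure D4:**
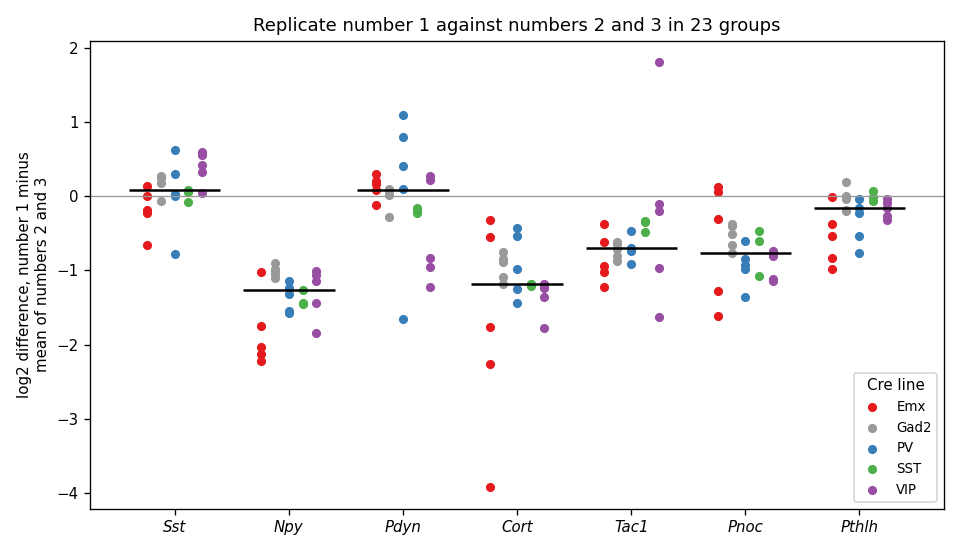
Log2 signal of replicate number 1 minus the mean of numbers 2 and 3 (vertical axis) for each gene (horizontal axis) in the 23 groups with 3 libraries, coloured by Cre line; black lines are medians. Npy and Cort lie below 0 in every group, Sst and Pdyn are spread about 0.

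The receptors and processing enzymes of these peptides were described from lists. Of 16 receptor genes 13 were tested. Without the block, 1 rose and 1 fell at some light time in Emx, 1 fell in SST and 1 rose in VIP, and none passed in Gad2 or PV. Over all genes the share higher at some light time was 2.9% in Emx, 1.11% in SST and 0.543% in VIP, and the share lower 1.3%, 0.134% and 0.0141%. Sstr2, a somatostatin receptor, rose at 7.5 h in Emx (2.06-fold, log2 1.04 ± 0.19 SE, adjusted p = 0.00647) and at 1 h in VIP (2.88-fold, log2 1.52 ± 0.29 SE, adjusted p = 0.0267). Sstr1, another, fell at 7.5 h in Emx (0.55-fold, log2 -0.85 ± 0.13 SE, adjusted p = 0.00206). Npy2r, a receptor of neuropeptide Y found on axon terminals, fell at 7.5 h in the SST line (0.23-fold, log2 -2.13 ± 0.36 SE, adjusted p = 0.0103). With the block receptors lower at some light time numbered 5 in Emx, where 14.6% of all genes were lower, 5 in SST (7.55%), 3 in Gad2 (3.34%), and 1 each in PV (2.66%) and VIP (0.571%). Receptors higher numbered 2 in Emx (14.7% of all genes), 2 in VIP (2.67%), 1 each in Gad2 (6.33%) and PV (5.51%), and 0 in SST (10.7%). Sstr3 was higher at one time and lower at another in Emx. The 5 lower in SST were Npy2r, Oprk1, Oprl1, Pth1r and Sstr1, which bind neuropeptide Y, dynorphin, nociceptin, parathyroid hormone-related protein and somatostatin.

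Of 13 genes of precursor processing, at least 1 passed in each line. Without the block, 4 rose at some light time in Emx (2.9% of all genes higher), 3 in SST (1.11%) and 3 in VIP (0.543%). Without the block 1 each rose in Gad2 (Vgf, 0.492%) and PV (Pcsk1, 0.373%), and none fell. With it the counts higher were 8 in Emx (14.7% of all genes), 5 in SST (10.7%), 3 in VIP (2.67%), 5 in Gad2 (6.33%) and 5 in PV (5.51%). The counts lower with the block were 2 in Emx (14.6% of all genes lower) and 1 in Gad2 (3.34%). Vgf, a secretory granule protein, rose at 7.5 h in SST (6.21-fold, log2 2.64 ± 0.32 SE, adjusted p = 0.00108) and in Gad2 (3.31-fold, log2 1.73 ± 0.22 SE, adjusted p = 0.00143). Pcsk1, the convertase that cuts many of these precursors, rose at 7.5 h in SST (2.91-fold, log2 1.54 ± 0.28 SE, adjusted p = 0.0155) and PV (2.56-fold, log2 1.36 ± 0.27 SE, adjusted p = 0.0492). In limma without the block Vgf also rose in VIP at 3 h (4.44-fold, adjusted p = 0.00127) and in Emx at 7.5 h (2.80-fold, adjusted p = 0.00389). Pcsk1 also rose at 3 h in Emx (3.97-fold, adjusted p = 7.05e-05) and VIP (1.92-fold, adjusted p = 0.0366). Scg2, of the same list, rose at 7.5 h in Emx (3.08-fold, adjusted p = 2.57e-05), SST (2.19-fold, adjusted p = 0.00747) and VIP (1.69-fold, adjusted p = 0.0118). The median log2 change of the list at 7.5 h was 0.15 in SST and 0.11 in PV, against -0.02 and 0.00 for all genes.

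Of 9 other cortical peptide genes, 4 rose without the block in Emx (2.9% of all genes higher), namely Vip, Crh, Trh and Penk. Without the block 1, Vip, rose in SST (1.11%), and none in the other lines. With it 7 rose in Emx (14.7% of all genes), 4 of 8 tested in VIP (2.67%), 3 in Gad2 (6.33%), 3 in SST (10.7%) and 2 in PV (5.51%), and none fell in any line. Vip in the SST line rose at 7.5 h (6.31-fold, log2 2.66 ± 0.50 SE, adjusted p = 0.0224). Its mean there over all housing was low, 259 against 81843 in the VIP line. In the Emx line Vip rose at 7.5 h (11.01-fold, log2 3.46 ± 0.61 SE, adjusted p = 0.00539), as did Crh, the precursor of corticotropin-releasing hormone, at 3 h (7.11-fold, log2 2.83 ± 0.55 SE, adjusted p = 0.0188). Both were low there, with means over all housing of 133 for Vip and 72.9 for Crh. The VIP line had 81843 and 4690. In the SST line, over the same housing, the summed signal of 7 SST markers other than members was 60708 to 70199.7 in dark and 81906 to 83943 at 7.5 h, and that of 6 inhibitory markers 118022 to 129248 and 137947 to 176823. Crhbp, 1 of those SST markers, rose there without the block (log2 1.32, adjusted p = 0.0288). The part of these sums in the changes of Npy, Pnoc and Cort in that line was not tested.

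The genes whose mean level followed each member most closely over the 25 groups were named by Pearson r of log2 signal among 11896 genes, as a description in which the groups of a line share a line level. For Sst they were Reln (0.99), Col25a1 (0.98) and Gpx3 (0.96). For Npy they were Bend4 (0.97), Snx8 (0.96) and Kcna3 (0.96). For Pdyn they were Myh13 (0.98), Tunar (0.97) and Chodl (0.97). Cort was closest to Anks1 (0.98), Pdxk (0.98) and Ece2 (0.97). Tac1 was closest to Eya4 (0.99), Cartpt (0.99) and Nek7 (0.98). For Pnoc the closest were Mast2 (0.99), Arl4c (0.98) and Nhs (0.98), and for Pthlh Ttc28 (0.98), Ret (0.98) and Zfp804a (0.97). Among the members the highest r was 0.92, between Cort and Pnoc, then 0.91 between Npy and Cort, Sst and Pdyn, and Sst and Npy, and the lowest was -0.36, between Pdyn and Pthlh.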

How the data were processed

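Polysome-bound RNA from the visual cortex of RiboTag mice was amplified and read as single 50-base ends, per the labels' protocols. The submitters' processing notes name TopHat2 2.0.13, Bowtie2 2.1.0.0, BWA, Cuffnorm, Cuffdiff 2.2.1 and the mouse build mm9, without their roles. The deposited table holds 1 signal value per gene and library, scaled by the authors to totals of 20.6 to 24.9 M. Low values step by 0.422 to 3.40, and 92.9% to 96.4% of them are whole multiples of the step of their library within 0.1 of a read, from which depth was estimated. Count tests were not used because too few values came out whole. Of 14284 rows, 23 with date-like names were dropped, and 2 SST library columns were empty.

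Tests used limma 3.58.1 in R 4.3.3 on log2(signal + 1), with robust trended moderation, for genes whose signal reached 1 in 3 or more libraries. A fold change on this scale understates the change of low genes. Genes at 0 in single libraries but high in the others were set aside, 10 to 26 per line and no member. Housing was tested in 1 fit per line, and line pairs and the interaction of line and light in 1 fit of 25 groups. Benjamini-Hochberg adjustment ran over all genes of a contrast at 5%, with a log2 difference of at least 1 for line pairs. Libraries sharing a replicate number deviated together (correlation of deviations from group means at least 0.109 in Gad2, 0.199 in VIP, 0.337 in Emx, 0.393 in PV and 0.410 in SST over 11930 genes, each of 73 libraries nearest to its own number), so the number pairs the samples by the data, though the labels do not say what it marks. Each library is a pool of 3 mice. Without the block p-values measure change against the spread between these pools. With it they measure change against the spread left once the level shared by a replicate number is taken out.

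The rule names all 7 members in every comparison, those with no call by count or as not called. Of each list, up to 3 genes called without the block, with the largest change in a line, are named. Those called only with the block are mostly given by count. For each member the 3 genes with the highest r are named, among genes with a mean signal of at least 50. Any further gene was picked with its values in view. Members and lists were chosen with earlier results of these data known. The code was tested on simulated data. Alternatives were the pseudocount, the filter, TMM rescaling, plain moderation, 1 fit of all groups, the replicate block and left-out libraries.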

Additional observations from a re-analysis of the deposited data

Results flagged for a closer look

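The light response of Npy differed between lines when the replicate number was a block. The test of the interaction of line and light time gave an adjusted p of 0.00897 over all 5 lines and of 0.00296 between PV and VIP (limma). The same tests without the block were not called, with adjusted p of 1.00 for both, and leaving out replicate number 1 or 3 ended both blocked calls. The Npy level of number 1 is low in both lines in every condition, and its part in this difference was not tested.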

How the results depend on the processing

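Without the block, the light response had 2 member calls and 2 or 3 under each pseudocount, no filter, TMM rescaling and 1 fit of all groups, and 1 with plain moderation, which lost Pthlh in VIP at 3 h (adjusted p = 0.0885). Leaving out single libraries gave 1 to 3 calls. The replicate block gave 28, and 22, 22 and 22 with number 1, 2 or 3 left out, alternatives chosen after seeing the data. Standard against dark housing went from 0 to 9 with the block (6, 7 and 9 with a number left out), 7.5 h against 1 h from 0 to 12 (8, 12 and 8), and 7.5 h against standard from 0 to 5 (7, 6 and 3) and to 1 in 1 fit of all groups. The interaction went from 0 to 2, and to 1 with number 2 left out. The lists went from 30 calls, in either direction, to 121 with the block. The share of all gene contrasts called higher under light also grew, from 0.526% to 3.8%. Leaving out single libraries kept these 3 housing contrasts at 0. The interaction was not refitted without single libraries, only without a whole replicate number. Line pairs had 55 to 58 calls in all fits with the size rule and 65 without it. For the 56 called pairs, 2 of 616 alternatives ended a call. These were Pdyn in Emx against VIP without replicate 1 (log2 0.91) and Tac1 in Gad2 against SST in dark housing alone (adjusted p = 0.204). Pairs not called at first are not part of the 616, and some of them passed in other fits. Without the block the sign turned for Npy in SST at 3 h without SST dark replicate 1 (log2 -0.14, range over left-out libraries -0.14 to 1.41), for Npy in SST at 7.5 h against standard without SST standard replicate 1 (-0.15, range -0.15 to 1.10) and for Pnoc in Gad2 at 3 h without Gad2 3 h replicate 3 (-0.0054, range -0.0054 to 0.54); the causes were not tested. The planned edgeR test on recovered reads was not run, since too few values were whole. In Emx, Cort (lowest library 0 reads), Pnoc (4) and Pthlh (8) rest on few reads, as does Tac1 in VIP (4).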
